A study of Mus musculus with 4 samples.

Results

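The genes described here repair or signal DNA double-strand breaks, and were measured in cultured spermatogonial stem cells of the mouse, which renew themselves and feed sperm production. They were chosen by name, as 45 gene symbols of homologous recombination, the Fanconi pathway, end joining and ATM/ATR signalling. All 45 were found among 22552 symbols in the deposited tables, and all 45 were among the 11924 symbols tested, those with a mean of at least 1 FPKM (fragment counts scaled to transcript length and library size). The cells came from testes of male DBA/C57 F1 mice aged 5 to 7 days and carried an inducible knockout of the microRNA miR-202. The treated cells received 10 µg/ml doxycycline, the inducer of the knockout, for 2 days after a night on laminin, and their controls were handled alike without the drug. Each group has 2 libraries, from single clones named iKO-SC-1 and iKO-SC-2. Their genotype is labelled wild type throughout, although all 4 come from the inducible knockout clones, and no library of cells without the construct was analysed here, so an effect of the drug and an effect of the knockout cannot be told apart.

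A double-strand break is the lesion in which both strands of a DNA molecule are cut. Homologous recombination repairs it by resecting the ends and copying an intact sister chromatid, end joining ligates the ends directly, and the Fanconi pathway unhooks crosslinks between strands and hands the resulting break to recombination. The kinases ATM and ATR sense the damage and mark the chromatin around it. In the testis many of the same proteins later act on the programmed breaks of meiosis, and they also guard the genome of the dividing stem cells.

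Summed over all genes, the doxycycline libraries held 313981 and 320243 FPKM, against 309153 and 314507 in the untreated ones. Whole-number steps among values under 0.1 FPKM put the depth of doxycycline replicate 2 at 1.22 times that of doxycycline replicate 1, and that of untreated replicates 1 and 2 at 1.33 and 1.54 times, so the doxycycline library was the shallower of each same-numbered pair. Mir202 was listed at 0 FPKM in all 4 libraries, as were all 605 microRNA symbols, so the tables check neither the knockout nor the labels. All 12 germ cell markers were tested and summed to 1500 and 1400 FPKM with doxycycline, against 1520 and 1420 untreated. The 12 markers of feeder fibroblasts summed to 162 and 154 FPKM with doxycycline, against 161 and 139 untreated, with a median log2 change of 0.10 over the 11 tested. One of them, Thy1, is also used to mark these stem cells. It rose in the fit with the replicate number as a block (limma adjusted p = 0.0312), as did 2.73% of all genes tested. Without the block its limma adjusted p was 0.123. Of the 11 tested markers, 6 were higher with doxycycline in both same-numbered pairs. Fbn1, Acta2 and Tagln, 3 of the 11, were lower in both, and 2 had opposite signs. The 10 Sertoli cell markers summed to 10.7 and 12.2 FPKM with doxycycline, against 9.44 and 9.98 untreated. Fshr among them was listed at 0 in all 4 libraries, and Amh, Gata4, Dhh and Cldn11 stayed under 0.25 FPKM. The 4 tested, Sox9, Clu, Kitl and Wt1, averaged 1.38 to 3.37 FPKM, with a median log2 change of 0.17. Sox9, Clu and Kitl were higher with doxycycline in both same-numbered pairs, as were 32.8% of all genes tested, and Wt1 had opposite signs. None of the 4 had a limma adjusted p under 0.05 in either fit. The 8 markers of macrophages and blood summed to 4.97 and 7.74 FPKM with doxycycline, against 5.49 and 4.65 untreated. In bulk RNA, fewer cells of a type and less RNA per cell cannot be told apart, and the part of other cell types in the values below was not tested.

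Transcripts of the repair genes were present at moderate levels and changed little with doxycycline. None of the 45 passed limma's test at an adjusted p under 0.05, against 0.277% of all genes tested (33 of 11924). Without doxycycline replicate 1 or 2 the count over all genes was 60 or 5, and without untreated replicate 1 or 2 it was 5 or 2, with no member in any. The mean FPKM with doxycycline was between 0.837 and 1.19 times the untreated mean for every member, and for 34 of the 45 it lay within 10%. The median log2 change of the 45 was -0.02, beside -0.002 for all genes tested, and the median absolute change was 0.07 in the members and in all genes alike. Limma's 95% intervals, each for 1 gene and without adjustment, had a median half-width of 0.14. Their lowest bound was -0.39, for Prkdc, and their highest 0.49, for Nhej1, on the log2(FPKM + 1) scale. These bounds correspond to 0.762-fold and 1.40-fold of FPKM + 1, and to wider folds of FPKM itself. At an unadjusted p under 0.05 there were 7 members (15.6%), a share close to the 15.1% of all genes. Of these 7, Fance, Fancm, Prkdc, Atm, Mdc1 and Rnf168 were lower and H2afx was higher.

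**Figure D1:**
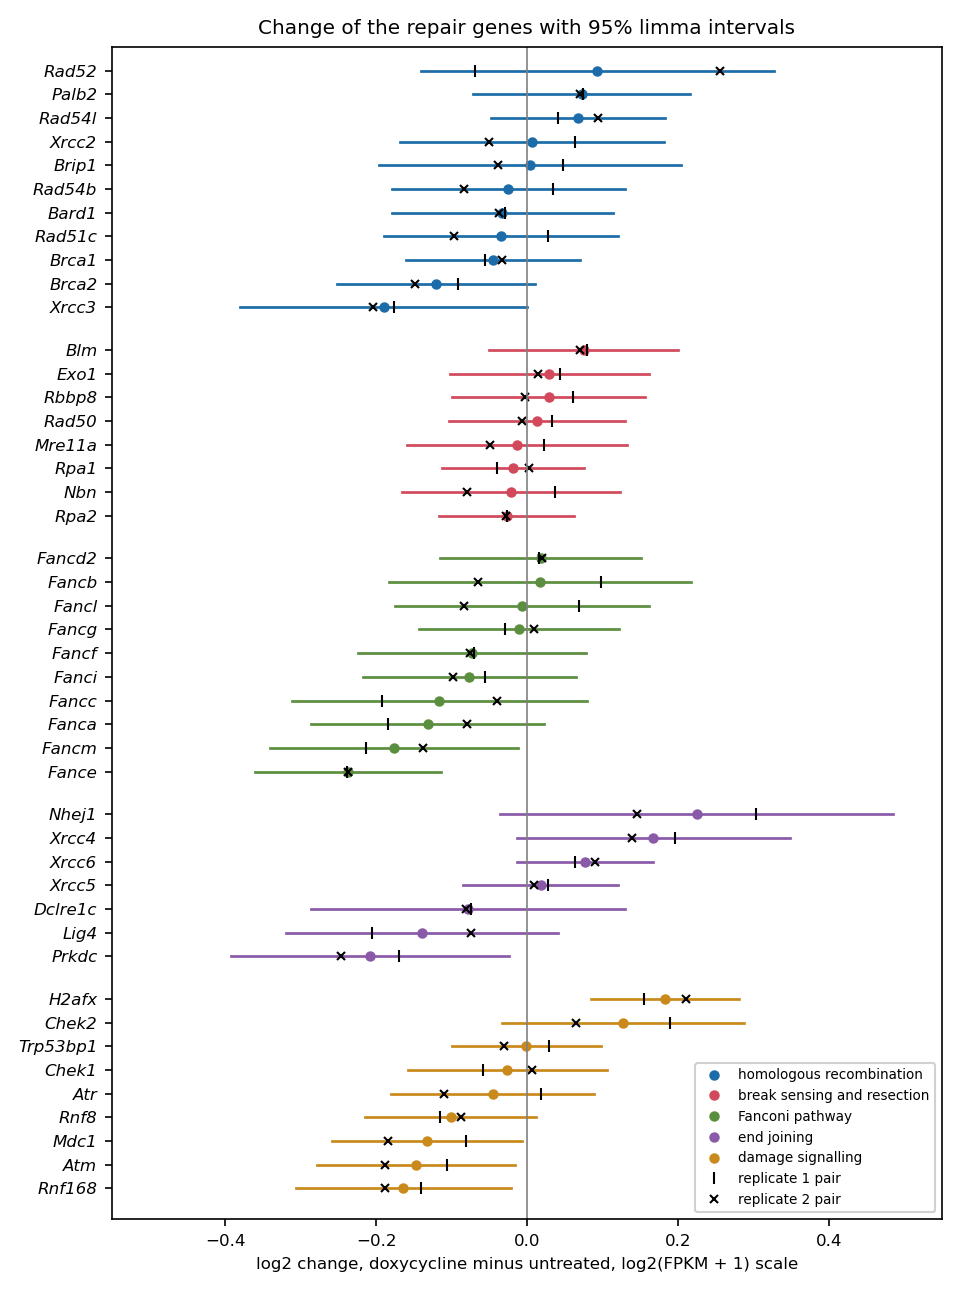
Log2 change of each of the 45 repair genes (doxycycline minus untreated, on the log2(FPKM + 1) scale, horizontal axis), with genes down the page by branch. Coloured dots and lines are limma's estimate and 95% interval (n = 2 libraries per group), and black bars and crosses are the replicate 1 and replicate 2 pairs. The intervals of 38 genes include 0, those of 6 lie below it and that of H2afx lies above it.

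More members lay wholly below the untreated range than above it. Both doxycycline libraries were lower than both untreated libraries for 17 members (37.8%), against 24.9% of all genes tested, and higher for 9 (20.0%), against 23.5%. In 19 members the groups overlapped. By same-numbered pairs, 18 members (40.0%) were lower in both, against 34.0% of all genes, and 11 (24.4%) were higher in both, against 32.8%. The remaining 16 had opposite signs in the pairs. The median change of the 45 was 0.02 in replicate 1 and -0.04 in replicate 2.

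With the replicate number as a block, the fit that compares libraries within same-numbered pairs, 1 of the 45 members passed, Fance, which was lower. Over all genes 3.7% passed in that fit, 0.973% lower and 2.73% higher. These p-values measure the spread between 4 libraries and no more.

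Recombination genes averaged 2.86 to 21.2 FPKM and none passed the test in either fit. Rad54l, a motor protein of homologous recombination, was the most abundant, at 21.2 and 22.3 FPKM with doxycycline and 20.6 and 20.8 FPKM untreated. Brca1, the ubiquitin ligase subunit that promotes resection, stood at 15.6 and 15.8 FPKM with doxycycline and 16.3 and 16.15 FPKM untreated. The 2 groups did not overlap for either gene, yet their log2 changes were 0.07 ± 0.05 and -0.04 ± 0.05 (SE), with limma adjusted p of 0.544 and 0.695. Rad52, which promotes strand annealing, had the largest positive change of the branch, at 0.09 ± 0.10. Its values were 8.67 and 10.7 FPKM with doxycycline, against 9.14 and 8.77 untreated, so only doxycycline replicate 2 stood above the other 3 libraries. Without that library the change of Rad52 was -0.04.

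Xrcc3, which acts in homologous recombination, had the largest negative change of the branch. It was at 2.64 and 2.57 FPKM with doxycycline, against 3.11 and 3.11 untreated. Its log2 change of -0.19 ± 0.08 (SE) missed the threshold (limma adjusted p = 0.332). The groups did not overlap, and the deposited confidence bounds of doxycycline replicate 1 spanned ±17.5% of its value. Its locus overlaps that of Klc1, no strand setting was stated, and some reads may be shared between them. Brca2, which acts on resected DNA, was lower in both pairs, with a log2 change of -0.12 (adjusted p = 0.361). Its partner Palb2, which bridges it to Brca1, was higher in both, at 0.07 (0.6), the adjusted p being limma's for each. Bard1, the partner of Brca1, and Brip1, its helicase, were at -0.03 and 0.004. The FPKM of Brca1 was 1.73 and 1.68 times that of Bard1 with doxycycline, against 1.76 and 1.68 times untreated. Rad51c and Xrcc2, which also act in recombination, and the motor protein Rad54b lay between -0.03 and 0.01.

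Genes of break sensing and end resection varied least. Their log2 changes ran from -0.03 to 0.075 over 8 genes, with a median of 0.0003, and the lowest limma adjusted p was 0.530. Rpa2 and Rpa1 encode subunits of RPA, the complex that coats single-stranded DNA, and were the most abundant of the branch. Rpa2 stood at 102.6 and 101.4 FPKM with doxycycline and 104.5 and 103.4 FPKM untreated, the highest level of all 45 members. Rpa1 stood at 50.4 and 50.5 FPKM with doxycycline and 51.8 and 50.4 FPKM untreated. Their log2 changes were -0.03 and -0.02, with 95% intervals of -0.12 to 0.06 and -0.11 to 0.08. Blm, the helicase that dissolves recombination intermediates, had the largest positive change, 0.075 ± 0.05 (SE), at 13.3 and 13.5 FPKM with doxycycline, against 12.5 and 12.8 untreated. The groups did not overlap, and the limma adjusted p was 0.530.

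The 3 genes of the MRN complex, which binds broken ends and activates ATM, each changed little between treatments. Rad50, the structural subunit, was at 17.2 and 16.7 FPKM with doxycycline, against 16.8 and 16.7 untreated. Mre11a, the nuclease, was at 13.7 and 12.6 FPKM with doxycycline, against 13.5 and 13.1 untreated, and Nbn, the regulatory subunit, at 12.1 and 11.2, against 11.8 and 11.9. Their log2 changes lay between -0.02 and 0.01. The nuclease cofactor Rbbp8 and the exonuclease Exo1 were both at 0.03.

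Fanconi genes were the branch with the largest share below the untreated range. Both doxycycline libraries were under both untreated libraries for 6 of 10 (Fance, Fancm, Fanca, Fancc, Fanci and Fancf) and above them for none, beside 24.9% and 23.5% of all genes tested. The branch summed to 84.0 and 83.9 FPKM with doxycycline and to 89.6 and 89.2 FPKM untreated. The median log2 change over its 10 genes was -0.07 (-0.06 in the replicate 1 pair, -0.08 in the replicate 2 pair). No test was made over the branch. These counts depend on which genes the branch was given. Of 10 further genes tested, listed as Fanconi partners and not among the members, 4 were wholly under the untreated range and 1 above it. Those partners summed to 265.5 and 270.9 FPKM with doxycycline, against 269.2 and 269.0 untreated, with a median log2 change of -0.02.

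Fance, the core complex subunit that binds FANCD2 and so presents the substrate to the ligase, was the 1 member called in any of the planned fits. It lies on chromosome 17 from 28450475 to 28463519 (mm9). Its FPKM was 12.5 and 12.3 with doxycycline, against 14.95 and 14.7 untreated, and the groups did not overlap. The means were 12.4 ± 0.155 FPKM with doxycycline and 14.8 ± 0.191 untreated (SD, n = 2 each), a ratio of 0.838. The log2 change was -0.24 in each pair, with an SE of 0.05 and a 95% interval of -0.36 to -0.11. Fance missed limma's threshold over all genes (adjusted p = 0.149) and fell just inside it with the replicate block (0.0493). After a trend with transcript length and GC content was removed from each library, an alternative added after the values were seen, its change was -0.19, with adjusted p of 0.196 and, with the block, 0.0981. The deposited bounds of Fance in doxycycline replicate 1 spanned ±12.1% of its value.

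Fancm, the translocase that brings the core complex to a stalled fork, had a log2 change of -0.18 ± 0.07 (SE) and an adjusted p of 0.308. Fanca, Fancc, Fanci and Fancf were at -0.13, -0.12, -0.08 and -0.07, and none passed limma's test. Fancd2, the protein whose ubiquitination licenses repair, was the most abundant of the branch and had its largest positive change, 0.02 ± 0.055 (SE, limma adjusted p = 0.903). It stood at 14.6 and 15.3 FPKM with doxycycline and 14.4 and 15.1 FPKM untreated, so replicate 2 was the higher in each group. Fancd2 FPKM was 1.48 and 1.52 times that of its clamp partner Fanci with doxycycline, against 1.40 and 1.40 times untreated. Fancg and Fancb, of the core complex, and its ligase Fancl lay between -0.01 and 0.02.

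**Figure D2:**
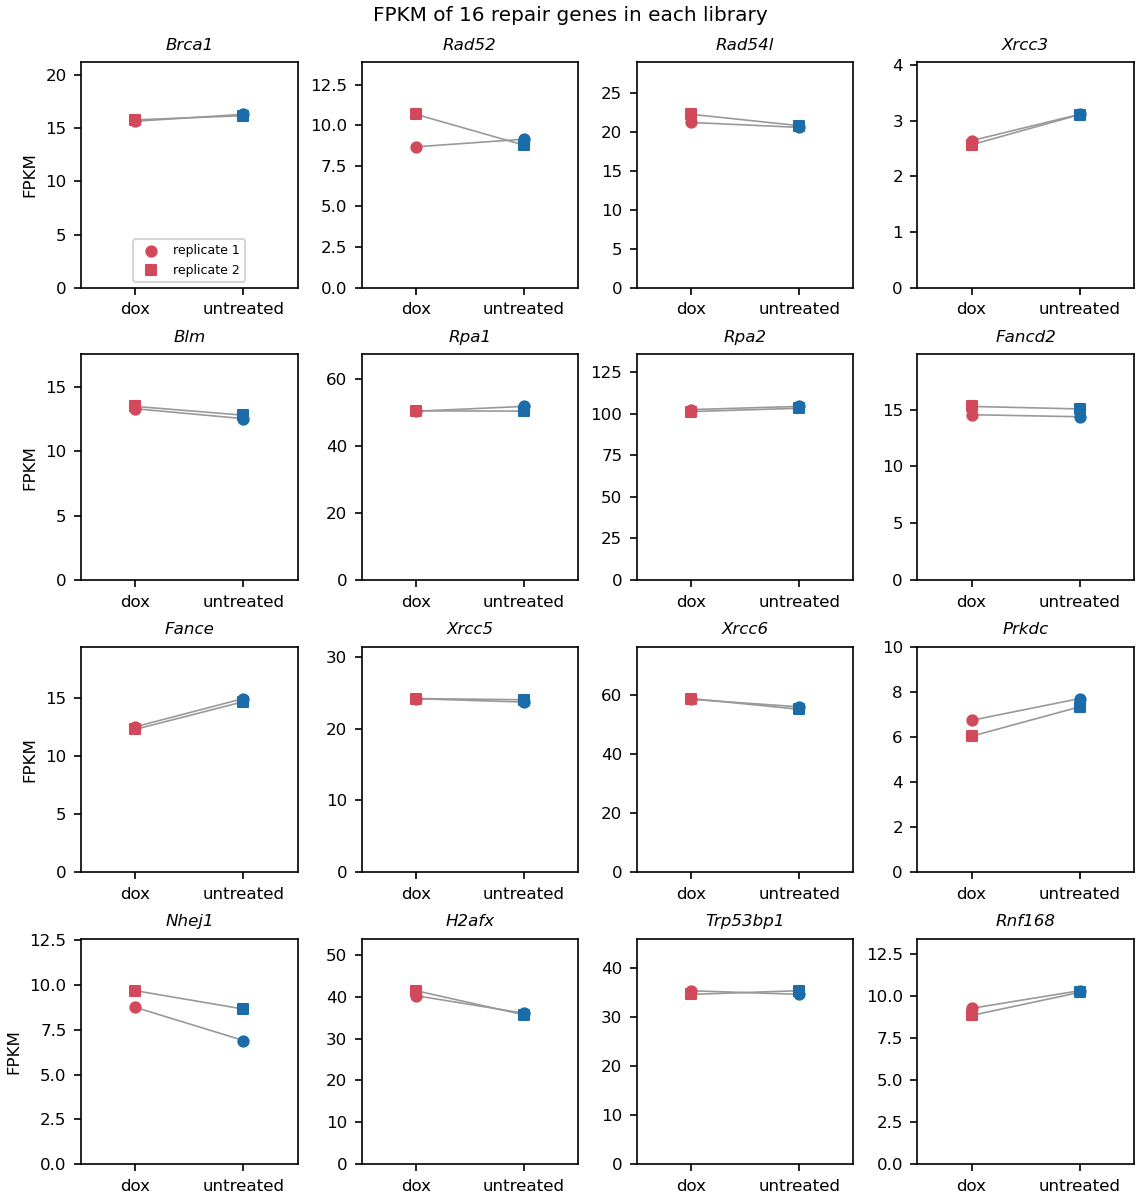
FPKM (vertical axis, from 0) of 16 repair genes in the 2 doxycycline libraries (red) and the 2 untreated libraries (blue), where circles and squares are replicates 1 and 2 and grey lines join libraries with the same number. Fance, Xrcc3, Prkdc and Rnf168 are lower in both doxycycline libraries, H2afx and Nhej1 are higher, and Rpa1, Trp53bp1, Rad52 and Fancd2 overlap.

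End joining genes differed in sign, each gene alike in both pairs, and none of the 7 passed the test in either fit. The groups did not overlap for any of them: 4 were higher with doxycycline and 3 lower, where 23.5% of all genes tested were wholly higher and 24.9% wholly lower. The sign followed transcript length. The 4 higher genes, Nhej1 (1053 bases), Xrcc4 (1540), Xrcc5 (2555) and Xrcc6 (3296), have the shortest transcripts of the branch, and the 3 lower ones, Lig4 (5028), Dclre1c (7075) and Prkdc (12647), the longest. Over these 7 genes, which share the same 4 libraries, the Spearman correlation of log2 change with length was -0.929, a description with no test. Xrcc6 and Xrcc5 encode the Ku subunits that encircle a DNA end. Xrcc6 was at 58.5 and 58.7 FPKM with doxycycline and 55.9 and 55.1 FPKM untreated, a log2 change of 0.08 ± 0.04 (SE, limma adjusted p = 0.390). Xrcc5 was at 24.21 and 24.23 FPKM with doxycycline and 23.7 and 24.1 FPKM untreated, a change of 0.02 with a 95% interval of -0.08 to 0.12. Per length, Xrcc6 was thus measured at 2.415 and 2.42 times Xrcc5 with doxycycline, against 2.355 and 2.29 times untreated.

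Nhej1, the XLF protein that aligns ends for ligation, had the largest positive change of all 45. It was at 8.76 and 9.69 FPKM with doxycycline, against 6.91 and 8.67 untreated. Its log2 change of 0.22 ± 0.11 (SE) missed the threshold (limma adjusted p = 0.386). Most of it came from replicate 1, at 0.30 against 0.15 in replicate 2. Without untreated replicate 1 its change was 0.08, under that of H2afx at 0.19, and without doxycycline replicate 2 it was 0.159, against 0.162 for H2afx. Without untreated replicate 2 it was 0.37. The groups barely separated, and the bounds of doxycycline replicate 1 spanned ±17.1%. Xrcc4, the scaffold of the ligase, was at 0.17 ± 0.07 (adjusted p = 0.355) and the ligase gene Lig4 at -0.14 ± 0.07 (0.428), so the partners differed in sign. Prkdc, the catalytic subunit of DNA-dependent protein kinase, stood at 6.74 and 6.03 FPKM with doxycycline, against 7.705 and 7.34 untreated. That is a log2 change of -0.21 ± 0.08 (SE, limma adjusted p = 0.290, and 0.113 with the block). The end-processing nuclease gene Dclre1c, at 1.83 FPKM the lowest member on average, was at -0.08.

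Signalling genes were led by H2afx, the histone variant that ATM phosphorylates around a break. H2afx was at 40.2 and 41.4 FPKM with doxycycline, against 36.0 and 35.65 untreated, and the groups did not overlap. Its means were 40.8 ± 0.845 FPKM with doxycycline and 35.8 ± 0.269 untreated (SD, n = 2 each), a ratio of 1.14, with a log2 change of 0.18 ± 0.04 (SE). It missed the threshold in both fits (limma adjusted p = 0.155, and 0.0554 with the block). With the length and GC trend removed its change was 0.23, with adjusted p of 0.0742 and, with the block, 0.0298. It lies on chromosome 9 from 44142798 to 44144156 (mm9).

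The adaptor that binds this mark and the ligases that act after it were lower, short of the threshold. Mdc1, which binds phosphorylated H2AX, was at 16.2 and 15.3 FPKM with doxycycline, against 17.15 and 17.5 untreated, a log2 change of -0.13 (limma adjusted p = 0.316). The ubiquitin ligase Rnf168, which marks chromatin for Trp53bp1, had the largest negative change of the branch, at 9.26 and 8.84 FPKM with doxycycline against 10.3 and 10.2 untreated. Its log2 change was -0.16 ± 0.06 (SE, limma adjusted p = 0.282), and that of Rnf8, the ligase acting before it, -0.10 (0.370). Trp53bp1, which steers breaks toward end joining, was at 35.3 and 34.5 FPKM with doxycycline and 34.5 and 35.3 FPKM untreated. Its log2 change was -0.0007, with a 95% interval of -0.10 to 0.10.

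Of the kinases, Atm was at 12.5 and 11.9 FPKM with doxycycline and 13.5 and 13.7 FPKM untreated, a log2 change of -0.15 ± 0.05 (SE, limma adjusted p = 0.292). Atr, which responds to single-stranded DNA at stalled forks, was at -0.05 (0.736). Their effector kinases Chek2 and Chek1 were at 0.13 ± 0.07 and -0.03 ± 0.05 (adjusted p = 0.416 and 0.858). Atm was thus lower and its effector Chek2 higher in both pairs, both short of the threshold.

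**Figure D3:**
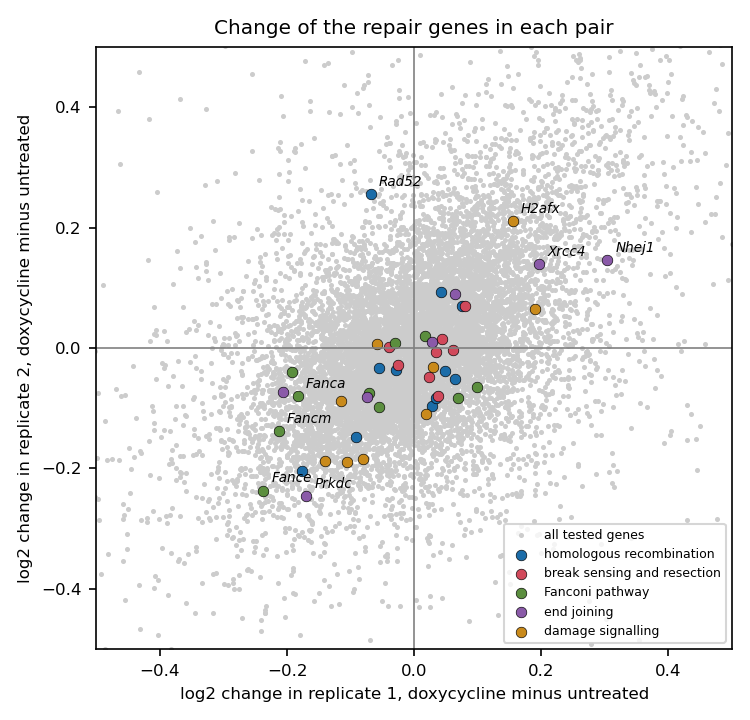
Log2 change (doxycycline minus untreated, log2(FPKM + 1) scale) in the replicate 1 pair (horizontal axis) and in the replicate 2 pair (vertical axis) for the 45 repair genes, coloured by branch, and all tested genes in grey. Axes stop at -0.5 and 0.5, beyond which some grey genes lie. Fance and Prkdc are at the lower left, H2afx, Xrcc4 and Nhej1 at the upper right, and Rad52 has opposite signs.

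The pairs use different libraries, and across the 45 members their changes had a Pearson correlation of 0.664, beside 0.574 over all 11924 genes tested. The fitted changes of all genes ran from -10.64 to 2.42, and those of the members from -0.24 to 0.22. A Pearson correlation weighs such extreme genes heavily, so the 2 correlations are not directly comparable. The median absolute difference between libraries of 1 treatment, on the log2 scale, was 0.04 between the doxycycline and 0.04 between the untreated libraries for the members. For all genes it was 0.07 and 0.07.

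Transcript length moved with the change over the 45 members together, though not in every branch. Across the 45 members the Spearman correlation of log2 change with the length of the longest annotated transcript was -0.415, at -0.347 in replicate 1 and -0.401 in replicate 2, beside -0.146 over 11808 tested genes. Within branches it was -0.929 in end joining, -0.517 in signalling and -0.382 in recombination. It was -0.03 in the Fanconi genes and 0.524 in break sensing and resection. These points share the same 4 libraries, so the values are descriptions. Prkdc, Brca2 and Atm, the members with the longest transcripts, were all lower with doxycycline. Nhej1, H2afx and Xrcc4, those with the shortest, were all higher. The next longest, Trp53bp1 (9621 bases), was at -0.0007, and the next shortest, Fancf (1691 bases), at -0.07. Among the 23 members of at least the median length of 3944 bases, 12 were under the untreated range and 1 above it. Among the 22 shorter members the counts were 5 and 8, and over all genes tested, of any length, the shares were 24.9% and 23.5%. Fance, at 2025 bases, and Xrcc3, at 2422, were short and low. With the length and GC trend removed, the members ran from -0.19 for Fance to 0.23 for H2afx, their median was -0.03 and the correlation with length was -0.278. Depth was lower in the doxycycline library of each pair, and its part in this relation was not tested.

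**Figure D4:**
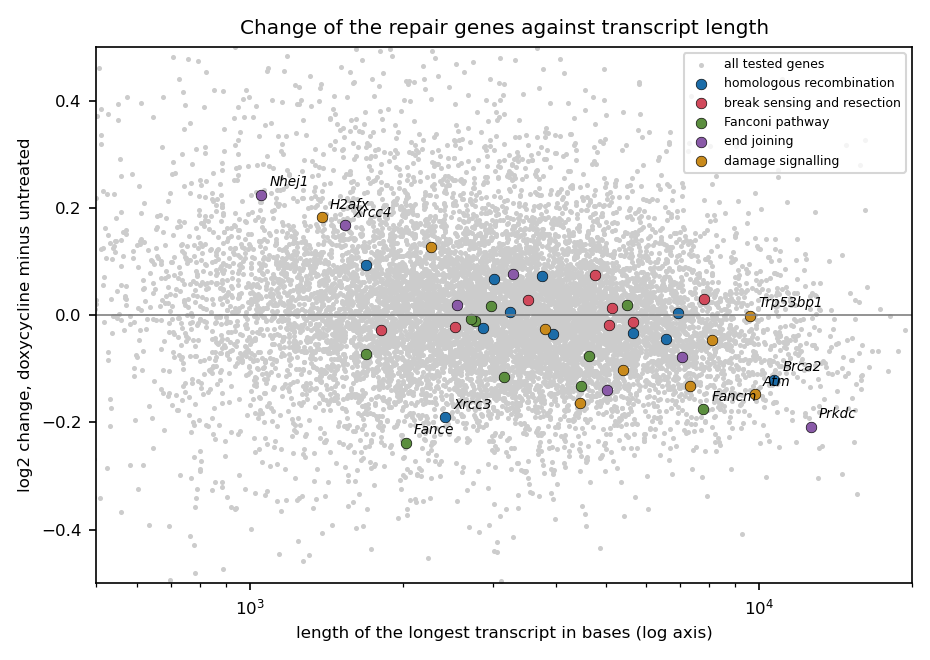
Log2 change (doxycycline minus untreated, vertical axis, shown from -0.5 to 0.5) against the length of the longest transcript in bases (log axis) for the 45 repair genes, coloured by branch, and all tested genes in grey. Nhej1, H2afx and Xrcc4 are short and high, Prkdc, Brca2 and Atm long and low, and Fance and Xrcc3 short and low.

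The mature arms of miR-202 are shown because a seed match, here the complement of bases 2 to 8, is used to look for microRNA targets. Shorter matches were not counted. The capitals mark the seed, the sequences are those of RefSeq (GRCm38.p6), and both arms lie on the minus strand of chromosome 7, at chr7:139957695-139957716 and chr7:139957732-139957752.
miR-202-3p: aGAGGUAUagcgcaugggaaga
miR-202-5p: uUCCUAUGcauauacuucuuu

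Seed matches were counted in the members and in all tested genes, with no test of the difference. In the longest annotated 3' UTR, 3 of 45 members (6.67%) matched the 3p arm, against 6.27% of 11542 tested genes, and 5 (11.1%) matched the 5p arm, against 8.40%. The median length of these 3' UTRs was 884 bases in the members and 1139 in all tested genes. The matches to the 3p arm were in H2afx, Rnf8 and Trp53bp1, all of the signalling branch, and those to the 5p arm in Trp53bp1, Dclre1c, Exo1, Mre11a and Rad54b. The sites of the 3p arm in these 3 genes, and those of the 5p arm in Trp53bp1, are given with the match in capitals (GRCm38, gene strand, GENCODE M21). They are H2afx at chr9:44335777-44335803 on the plus strand, Rnf8 at chr17:29641491-29641517 on the plus strand, and Trp53bp1 on the minus strand at chr2:121196860-121196886 and chr2:121194886-121194912 for the 3p arm and at chr2:121198186-121198212 and chr2:121196999-121197025 for the 5p arm.
H2afx, 3p: gtttctctaggaATACCTCccggcaag
Rnf8, 3p: tgattgtttttgATACCTCatgcaccc
Trp53bp1, 3p, first: gggaggatttttATACCTCtgcatttc
Trp53bp1, 3p, second: gagccatgacttATACCTCtttgtatc
Trp53bp1, 5p, first: gaacatgataaaCATAGGAtcttctct
Trp53bp1, 5p, second: gtggttatcttcCATAGGAatatagta

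The genes with these sites did not move alike. Trp53bp1 holds 4 of the 10 matches among the members and had a log2 change of -0.0007, Rnf8 was at -0.10 and H2afx at 0.18. The 7 members with a match to either arm had a median of -0.01, and the 38 without one a median of -0.02. A match is a description of these letters and not a measured target site.

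Promoters of the members were searched because shared letters there are a feature the choice of genes did not use. RefSeq promoters, 250 bases before to 50 after the start (GRCm38.p6), matched 36 of the 45. Xrcc2, Fancd2, Rad50, Prkdc, Rad54b, Exo1, Rbbp8, Nbn and H2afx had none in the table. On either strand, the E2F letters TTTCCCGC, TTTGGCGC or TTTCGCGC were found in 7 of 36 (19.4%), against 2.12% of all 27025 genes with a promoter. The 7 were Bard1, Brca2, Chek2, Fancg, Mdc1, Rad51c and Xrcc6. The CCAAT letters were found in 22 of 36 (61.1%), against 41.1% of all genes. TTTGAA, the letters of the CHR element of late cell cycle genes, was found in 2 (5.56%, Bard1 and Rnf8), against 20.2%. A full p53 site with a spacer of at most 1 base was found in 0 of 36, and in 3 of all 27025. All 36 members are tested genes, whereas the 27025 were not limited to tested genes, and shares among tested genes were not computed. The differences in share therefore cannot be assigned to repair genes as such. No match says only that these letters are not in this window.

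The promoters below show Fance, the member called with the block, and 3 genes with E2F letters whose changes differed in sign. Capitals mark CCAAT or its complement ATTGG, and E2F letters or their complement GCGGGAAA. Fance lies at chr17:28313280-28313579, Mdc1 at chr17:35841248-35841547, Chek2 at chr5:110839733-110840032 and Xrcc6 at chr15:82016119-82016418, all on the plus strand.
Fance: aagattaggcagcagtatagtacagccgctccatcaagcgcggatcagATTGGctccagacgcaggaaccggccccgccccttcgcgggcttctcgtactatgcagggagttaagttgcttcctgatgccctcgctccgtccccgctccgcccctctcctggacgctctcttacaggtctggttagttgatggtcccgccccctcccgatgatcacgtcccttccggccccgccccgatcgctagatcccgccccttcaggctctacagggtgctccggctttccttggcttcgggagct
Mdc1: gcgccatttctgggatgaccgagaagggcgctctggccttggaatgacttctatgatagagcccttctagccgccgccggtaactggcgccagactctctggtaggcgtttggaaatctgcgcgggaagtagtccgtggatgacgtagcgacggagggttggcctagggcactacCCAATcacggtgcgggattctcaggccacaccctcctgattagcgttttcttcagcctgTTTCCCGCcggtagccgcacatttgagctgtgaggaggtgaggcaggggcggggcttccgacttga
Chek2: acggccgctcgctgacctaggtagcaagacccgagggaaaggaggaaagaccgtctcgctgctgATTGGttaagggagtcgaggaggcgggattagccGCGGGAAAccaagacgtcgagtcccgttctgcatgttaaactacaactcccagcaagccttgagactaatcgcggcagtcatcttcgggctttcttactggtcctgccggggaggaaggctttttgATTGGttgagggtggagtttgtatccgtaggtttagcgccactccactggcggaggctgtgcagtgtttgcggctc
Xrcc6: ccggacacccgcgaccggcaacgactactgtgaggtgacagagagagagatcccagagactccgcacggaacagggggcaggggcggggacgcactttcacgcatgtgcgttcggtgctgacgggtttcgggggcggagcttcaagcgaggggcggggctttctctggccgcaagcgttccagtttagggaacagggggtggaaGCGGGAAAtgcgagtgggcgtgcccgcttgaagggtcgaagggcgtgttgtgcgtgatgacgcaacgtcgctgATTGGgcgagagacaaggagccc

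Fance thus had CCAAT letters and no E2F letters in this window. Of the 3 genes with E2F letters shown, Mdc1 was at a log2 change of -0.13, Chek2 at 0.13 and Xrcc6 at 0.08, none past the threshold. The other members with E2F letters, Brca2, Rad51c, Bard1 and Fancg, were at -0.12, -0.03, -0.03 and -0.01, also short of it.

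Other genes of the same pathways were measured too. Of 84 further repair genes listed, 75 were in the tables and 73 were tested, and none passed limma's test. Their median log2 change was -0.02, and both doxycycline libraries were below both untreated libraries for 23 of the 73 and above them for 13, beside 24.9% and 23.5% of all genes tested. With the block, 1 rose and 1 fell, against 2.73% and 0.973% of all genes. Rev1, a translesion polymerase scaffold used in crosslink repair, rose, at 16.5 and 17.9 FPKM with doxycycline against 14.2 and 14.6 untreated. Its log2 change was 0.24 ± 0.06 (SE), with a limma adjusted p of 0.173, and 0.0465 with the block. Slx4, the scaffold of structure-specific nucleases and itself a Fanconi protein, fell, at 4.89 and 4.945 FPKM with doxycycline against 6.72 and 6.27 untreated. Its log2 change was -0.34 ± 0.07 (SE), with a limma adjusted p of 0.143, and 0.0433 with the block. With the length and GC trend removed, the block left neither, with adjusted p of 0.0617 for Rev1 and 0.0708 for Slx4. The locus of Rev1 overlaps that of Eif5b.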

How the data were processed

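Per the labels' protocols, TRIzol RNA gave 4 HiSeq4000 libraries, 2 with doxycycline and 2 untreated. The submitters' processing notes name, with no role or order, the build mm9 and the tools Cuffdiff, Cufflinks 2.0.2 and TopHat2 2.0.6. Per the file headers, the authors deposited FPKM per gene, a length- and depth-scaled value. Annotation, strand setting and read depth: not given in the sources used here. Where a symbol had several lines (259 symbols), its FPKM were added up. Loci and confidence bounds come from the table of doxycycline replicate 1. Its status was OK for all 45 members, and 1 was added to its starts because 472 of 480 microRNA hairpins fitted a start counted from 0. Overlapping deposited loci concern 8 members (Rad54l, Xrcc3, Fanca, Fanci, Fancl, Dclre1c, Atr and Trp53bp1), whose reads may be shared.

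The test was limma 3.58.1 under R 4.3.3, two-sided and with moderation that follows intensity, on log2(FPKM + 1) of all genes averaging 1 FPKM or more. A Benjamini-Hochberg adjusted p under 0.05 over all of them counted as passed. The pseudocount understates the change of low genes. Every adjusted p is from limma. Residual degrees of freedom were 2, plus 4.23 from moderation, and 1 plus 6.21 with the replicate block. The design text names the same 2 clones for both conditions, so libraries that share a number are treated as 1 clone, although no title says so. Their deviations from the group means correlated at 0.215 over all genes. The labels do not say whether clones of a group were cultured apart beyond their names, so p-values measure only the spread between these libraries, which may be technical.

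The members, lists, tests and alternatives were chosen with earlier results of these data known. Values per library are given for members past the threshold in either fit, and in each branch for the 2 most abundant and for the largest change in each direction, 16 in all. Other genes named with values (such as Atm, Mdc1 and those of MRN) were chosen after their values were seen. Alternatives were other normalizations, pseudocounts, filters and moderation, the replicate block, leaving out each library, and removing length and GC trends by loess. Lengths, GC and 3' UTRs come from GENCODE M21, which matched 22165 symbols, 11808 tested genes and all 45 members. The fit was tested on simulated data whose changes were larger than that of any member. How often it finds changes of the size seen here was not tested. Python 3.11.15 with pandas 2.3.3 and scipy 1.17.1 was used.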

Additional observations from a re-analysis of the deposited data

How the results depend on the processing

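No member passed under quantile normalization, median centring, pseudocounts of 0.1 and 0.5, no filter, a filter of 5 FPKM (which left 40 members), no intensity trend, robust moderation, the highest line per symbol, any fit without 1 library, or length and GC removed. With the replicate block 1 passed (Fance), and 1 (H2afx) with length and GC removed and the block. Their median log2 change ran from -0.04 to -0.01 over all 16 alternatives. Leaving out 1 library in turn, the median ran from -0.039 to -0.0119. The count over all genes, 33, was 1 with no filter, 88 with a filter of 5 FPKM, 2 with no intensity trend, 441 with the replicate block, and 53 with length and GC removed, or 318 when that was combined with the block. Leaving out 1 doxycycline library gave 60 (replicate 1) or 5 (replicate 2) and leaving out 1 untreated library 5 or 2, where the lone library of a group is assumed to vary like the other group. The cause was not tested. The block changed no call of a named member other than that of Fance. Fance, at -0.24, ran from -0.25 to -0.19 and H2afx from 0.16 to 0.23. With 1 library left out, Fancd2 ran from -0.0151 (no doxycycline replicate 2) to 0.0512 and was also reversed, at -0.0136, with no untreated replicate 1, and Rad52 ran from -0.042 (no doxycycline replicate 2) to 0.2287. Nhej1 ran from 0.08 (no untreated replicate 1) to 0.37 (no untreated replicate 2). Of 191 recomputed changes of 12 named genes, 184 kept their direction and their side of the threshold. The unknown read depth limits Dclre1c, Xrcc3, Nhej1 and Xrcc4 most, whose deposited bounds spanned ±17.8%, ±17.5%, ±17.1% and ±16%, against a member median of 6.72%.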
